A study of Mus musculus with 16 samples.

Results

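The collagen chain genes and laminin chain genes of the mouse were followed through the first days of differentiation of embryonic stem cells. They were chosen by symbol: protein-coding genes named Col, a number, a and a number, or Lama, Lamb or Lamc with a number, which gave 55 of the 35975 genes in the files, 44 collagens and 11 laminins. All cells were ES-E14TG2a, an established line of mouse embryonic stem cells also called E14, so WT and TKO each stand for cells of 1 line. They carried either the WT genotype or the genotype labelled TKO, which the labels do not expand. Every group was first kept for 2 weeks or more in 2i+VitC medium (inhibitors of Gsk3 and of MEK, LIF and vitamin C) on plates coated with fibronectin, itself a matrix protein. EpiLC differentiation, which moves naive stem cells towards epiblast-like cells, was started in N2B27 medium with Fgf2, Activin A and 1% Knock-out serum. Cells were taken on days 0, 2, 4 and 7, and were split once more on day 4. Each of the 8 groups had 2 libraries labelled as biological replicates, 16 in all, of stranded mRNA sequencing; nothing says whether a pair came from separate cultures, so p-values measure the spread between these libraries.

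Collagens are chains that wind in threes into a rigid helix. Fibrillar collagens build cables, type IV collagens build the open net of the basement membrane, type VI collagens build fine beaded filaments, and fibril-associated collagens sit on the surface of other fibrils. Laminins are cross-shaped trimers of an alpha, a beta and a gamma chain, and lay down the first layer of a basement membrane, to which integrins and dystroglycan on the cell surface bind. In the early embryo the epiblast rests on a laminin-rich basement membrane made partly by the endoderm around it, and a laminin of the chains Lama5, Lamb1 and Lamc1 is widely used as a culture surface for pluripotent cells.

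The estimated counts per library added up to between 39799498 and 58197630 in WT and between 33168178 and 47064338 in TKO. Dnmt1, the maintenance DNA methyltransferase, was at 310 to 545 CPM, counts scaled to library size, in the 8 WT libraries and at 36.2 to 55.9 CPM in the 8 TKO libraries. Dnmt3a, a de novo methyltransferase, was lower in TKO on days 0, 2 and 7 (log2 difference -3.53, -4.08 and -3.13) and not called on day 4 (-1.61 ± 0.56, adjusted p 0.0553; -3.33 without TKO day 4 replicate 1 and -0.86 without replicate 2). For day 4 it was called lower by DESeq2 (adjusted p 0.0263) and by edgeR with a stricter filter on low counts (0.035). Dnmt3b, another de novo methyltransferase, was not called on day 0 (0.04) and was lower on days 2, 4 and 7 (-0.91, -1.22 and -1.71). Zfp42, a marker of naive stem cells, stood at 445 CPM or more in all 4 libraries of day 0 and at 3.09 CPM or less in all 4 of day 7. Fgf5, a marker of the epiblast, was at 0.115 CPM or less on day 0 and at 207 CPM or more on day 7. The pluripotency factor Pou5f1 was present throughout, at 593 CPM or more. The 2 libraries of TKO day 4 differed more than 2-fold for 145 genes at 5 CPM or more. In the other 7 groups this held for 5 to 110 genes, lowest in TKO day 0 and highest in WT day 0. The WT libraries of day 4 were apart for 70 genes, with Acta2 at 32.7 and 7.19 CPM. Such a gap does not tell which library is unusual. TKO day 4 replicate 1 held 187 CPM of Dnmt3a against 33.9 in replicate 2. Its 13 markers of primitive and parietal endoderm summed to 71.0 CPM, against 18.4 in replicate 2 and 17.9 and 25.5 in WT day 4. Differences on day 4 are therefore given also without TKO day 4 replicate 1 for the genes and lists described below.

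Of the 55 genes, 54 passed the filter on low counts; Col10a1, which was at most at 0.169 CPM in any library, did not. The filter keeps a gene that is high in 1 group alone, so the 54 include genes that were close to 0 elsewhere. Some of the 55 are neighbours in the genome; Col4a3 and Col4a4, for example, lie head to head on chromosome 1, 71 bases apart. Start-site windows of 300 bases, from 250 before to 50 after the start in RefSeq (GRCm38.p6), were at hand for 40 of the 55. Those of 2 sets are shown because their genes moved together in the results: Col4a1 and Col4a2, which start 21 bases apart on opposite strands of chromosome 8 and whose windows share 78 bases, and Col6a4, Col6a5 and Col6a6, which lie in a row on 1 strand of chromosome 9 with no other protein-coding gene between them, 28810 and 27917 bases apart. Col28a1 is added because its window holds no CpG, and it was among the genes furthest apart between genotypes on day 7. The window of Col3a1 and 1 of the 2 windows of Col9a1 hold no CpG either. Neither of those genes was called between genotypes on day 7, so the choice of Col28a1 shows no link. Capitals mark each CG, the dinucleotide that carries DNA methylation in mammals and reads the same on both strands.
Col4a1: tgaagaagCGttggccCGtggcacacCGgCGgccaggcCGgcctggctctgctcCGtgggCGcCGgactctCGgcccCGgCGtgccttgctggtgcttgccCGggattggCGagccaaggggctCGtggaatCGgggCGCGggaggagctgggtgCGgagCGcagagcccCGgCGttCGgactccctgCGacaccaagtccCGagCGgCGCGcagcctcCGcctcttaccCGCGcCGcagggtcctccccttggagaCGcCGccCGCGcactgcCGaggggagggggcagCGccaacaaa
Col4a2: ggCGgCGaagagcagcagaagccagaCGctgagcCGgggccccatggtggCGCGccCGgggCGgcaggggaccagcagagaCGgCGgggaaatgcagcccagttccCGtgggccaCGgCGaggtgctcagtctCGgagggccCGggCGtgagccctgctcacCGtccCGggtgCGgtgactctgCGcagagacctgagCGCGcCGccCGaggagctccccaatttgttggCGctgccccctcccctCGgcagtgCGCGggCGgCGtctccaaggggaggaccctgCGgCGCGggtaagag
Col6a4: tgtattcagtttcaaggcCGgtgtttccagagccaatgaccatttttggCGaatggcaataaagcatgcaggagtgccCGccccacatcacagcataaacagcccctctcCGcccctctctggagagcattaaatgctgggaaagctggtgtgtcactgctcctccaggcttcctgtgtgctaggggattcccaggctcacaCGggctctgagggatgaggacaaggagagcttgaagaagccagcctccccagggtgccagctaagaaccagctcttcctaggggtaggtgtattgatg
Col6a5: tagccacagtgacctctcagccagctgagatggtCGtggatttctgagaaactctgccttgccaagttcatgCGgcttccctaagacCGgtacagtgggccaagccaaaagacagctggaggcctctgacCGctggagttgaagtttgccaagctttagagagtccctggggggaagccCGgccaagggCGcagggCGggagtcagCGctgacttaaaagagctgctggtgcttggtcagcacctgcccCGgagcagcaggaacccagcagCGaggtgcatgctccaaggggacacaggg
Col6a6: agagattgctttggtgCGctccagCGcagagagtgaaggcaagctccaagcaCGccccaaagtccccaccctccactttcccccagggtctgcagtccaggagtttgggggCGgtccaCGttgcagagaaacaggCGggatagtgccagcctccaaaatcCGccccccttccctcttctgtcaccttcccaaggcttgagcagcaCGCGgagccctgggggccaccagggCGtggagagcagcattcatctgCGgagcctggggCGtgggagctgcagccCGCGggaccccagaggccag
Col28a1: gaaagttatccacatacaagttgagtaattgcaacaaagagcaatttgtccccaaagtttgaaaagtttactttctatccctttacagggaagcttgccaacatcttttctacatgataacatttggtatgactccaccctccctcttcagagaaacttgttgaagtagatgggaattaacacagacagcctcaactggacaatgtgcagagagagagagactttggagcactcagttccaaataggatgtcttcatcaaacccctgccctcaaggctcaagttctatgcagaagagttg

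The Col4a1 window (chr8:11312777-11313076, minus strand) holds 37 CGs and the Col4a2 window (chr8:11312555-11312854, plus strand) 33. The windows of Col6a4 (chr9:106096642-106096941), Col6a5 (chr9:105960594-105960893) and Col6a6 (chr9:105828036-105828335), all on the minus strand, hold 5, 10 and 14. That of Col28a1 (chr6:8192568-8192867, minus strand) holds 0. Over all 32851 windows of the table the median was 7 CGs with quartiles of 3 and 20, 94.6% held at least 1 and 5.43% held none; the median over the 44 windows of the 40 genes was 10.5. No methylation was measured here, so these counts describe the sequence alone.

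Levels are compared between genes in TPM, the share of transcripts after division by length. In WT on day 0 the laminins led. Lamc1, the gamma chain of most laminins, averaged 119 ± 22.2 TPM (SD, n = 2), Lamb2 51.1 ± 24.1, Lama1 29.3 ± 3.27 and Lama5 21.7 ± 0.131, and the highest collagen was Col18a1 at 15.9 ± 2.89. Lamb2 was at 34.1 and 68.1 TPM in its 2 libraries and Lama1 at 27.0 and 31.6, a difference of means smaller than the SD of Lamb2. By day 2 Col18a1 was first, at 190 ± 24.2 TPM in WT and 192 ± 11.2 TPM in TKO, and it was the highest collagen in all 16 libraries. Its share of all collagen TPM was 81.8% and 82.4% in the WT libraries of day 2 and 23.9% and 25.8% on day 7. On day 7 WT held Col18a1 at 71.0 ± 1.82 TPM, Col4a1 at 64.5 ± 5.67, Lamc1 at 62.5 ± 1.45 and Lama5 at 60.2 ± 6.82. The libraries of Col4a1, Lamc1 and Lama5 overlapped and those of Col18a1 lay above them, and Col2a1 came next at 45.6 ± 5.90. In TKO on day 7 Col4a1 stood lower in that order, at 23.7 ± 4.66 TPM, below Col2a1 (54.9 ± 6.95) and Lamb1 (38.3 ± 6.46). The map of 54 of the genes by library shows these levels together.

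**Figure D1:**
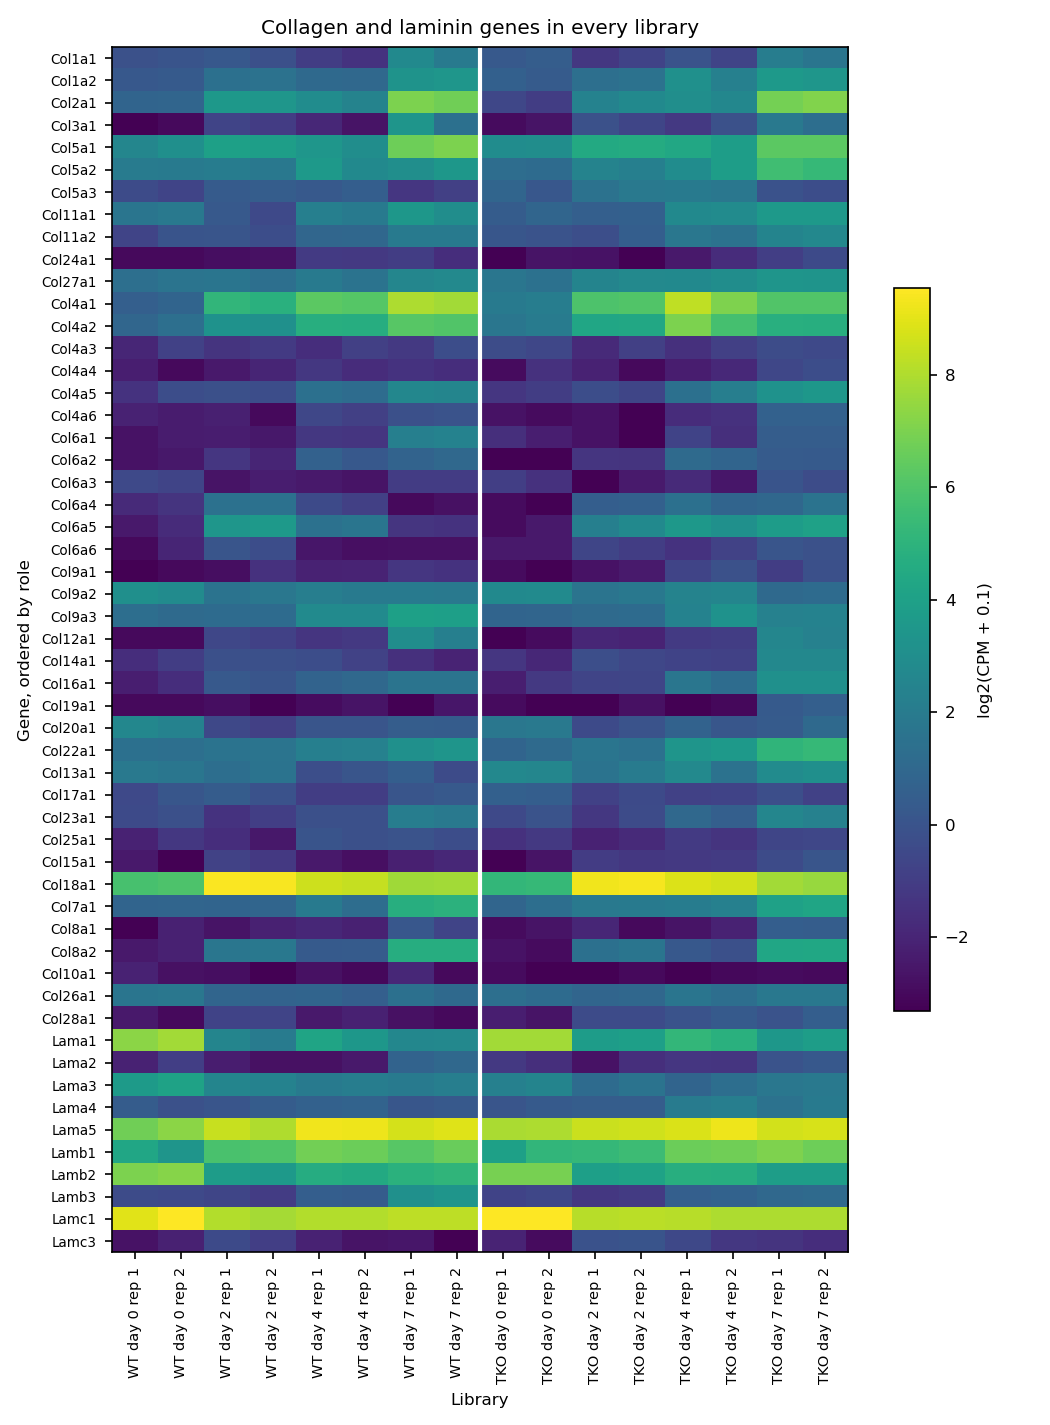
Level of 54 of the 55 collagen and laminin genes (rows, ordered by role) in each of the 16 libraries (columns; WT left of the white line, TKO right), as log2(CPM + 0.1), with brighter colours for higher levels. Col18a1, Lama5 and Lamc1 are bright after day 0 in both genotypes, Lama1 and Lamb2 are brightest on day 0, and Col6a4, Col6a5 and Col6a6 are dark in WT and lit in TKO on day 7.

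Changes were tested with edgeR's quasi-likelihood test over all 18489 genes kept, and genes with an adjusted p under 0.05 (Benjamini-Hochberg) are those called. From day 0 to day 2 in WT, 22 of the 54 genes rose and 12 fell, 63.0% in all, where 61.5% of all genes tested were called, 32.9% higher and 28.6% lower. The median log2 change was 0.30 against 0.06 over all genes. To day 7 in WT 31 rose and 10 fell, 75.9% against 66.2% of all genes (32.9% higher and 33.2% lower), with a median of 1.82 against -0.03. In TKO 24 rose and 12 fell to day 2, 66.7% against 57.0% (31.5% higher and 25.5% lower). To day 7 in TKO 40 rose and 9 fell, 90.7% against 67.8% (36.1% higher and 31.7% lower), with a median of 2.84 against 0.04. The share that rose by day 7 was thus above that of all genes in both genotypes, and the share that fell below it.

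TKO differed from WT in 2 genes higher and 5 lower on day 0, 13.0% against 12.7% of all genes (4.52% higher and 8.16% lower), a share close to the background. On day 2 there were 7 higher and 4 lower, 20.4% against 13.4% (7.91% higher and 5.52% lower). On day 4 there were 22 higher and 2 lower, 44.4% against 28.9% (17.8% higher and 11.1% lower), with a median of 0.55 against 0.01 for all genes. On day 7 there were 18 higher and 9 lower, 50.0% against 44.5% (23.4% higher and 21.1% lower), with a median of 0.40 against 0.00. Without TKO day 4 replicate 1 the count of day 4 was 16 higher and 2 lower. The count of day 0 fell to 4 without TKO day 0 replicate 2 and when only the libraries compared were fitted. That of day 2 fell to 7 with an offset for effective transcript length, to 4 without TKO day 2 replicate 1 and to 5 without WT day 2 replicate 2 or TKO day 2 replicate 2. The offset corrects counts for the mix of long and short isoforms in each library, and is called the length offset below. With a library left out, the share over all genes was not counted, here or for the lists below. Such counts do not show whether a share above that of all genes remained.

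Whether the TKO against WT difference itself changed from day 0 was tested too. It changed in 5 genes upwards and 1 downwards by day 2 (11.1% against 7.56% of all genes, 5.76% up and 1.8% down), in 12 and 1 by day 4 (24.1% against 16.3%, 11.6% up and 4.67% down) and in 14 and 10 by day 7 (44.4% against 27.1%, 15.8% up and 11.3% down). These 3 tests share the libraries of day 0. The count by day 2 fell to 0 by edgeR without TKO day 2 replicate 2 (11 at an unadjusted p under 0.05), where DESeq2 on all libraries called 5, and that by day 4 to 7 when only the libraries compared were fitted. In each of the 8 comparisons of 2 groups, every called gene of the 54 had groups that did not overlap. The share over all genes was not counted. With 2 libraries per group, genes without a call can separate too, as Nanog and Otx2 did between genotypes on day 0. The lack of overlap therefore adds no support to the calls.

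The laminin chains changed over as the cells left the naive state. Lama1, an alpha chain of the earliest embryonic laminins, was at 158 and 217 CPM in WT on day 0, 5.60 and 3.97 on day 2, 18.5 and 11.3 on day 4 and 6.06 and 6.44 on day 7. Lamb2 went from 129 and 146 CPM to 13.5 and 12.3 on day 2. Both were high in both day 0 libraries and lower in every later WT library, and the log2 change to day 2 was -5.28 ± 0.27 (SE) for Lama1 and -3.41 ± 0.10 for Lamb2 (adjusted p 5.77e-09 and 1.34e-11). Lamc1 fell less: it was at 494 and 724 CPM on day 0 and at 263 and 227 on day 2 (log2 change -1.31 ± 0.14, adjusted p 1.95e-06). Lama3, an alpha chain that pairs with Lamb3 in the anchoring laminin of epithelia, also fell (-1.46 ± 0.20, 2.10e-05).

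Lama5 and Lamb1 went the other way. Lama5, the alpha chain of the main epiblast laminin, was at 108 and 160 CPM in WT on day 0, 349 and 258 on day 2, 615 and 601 on day 4 and 416 and 482 on day 7, so no later library fell to the level of day 0. Lamb1 was at 19.2 and 10.2 CPM on day 0, 56.8 and 64.0 on day 2, 112 and 101 on day 4 and 72.6 and 96.8 on day 7. To day 7 the rise was 1.75 ± 0.19 for Lama5 and 2.53 ± 0.35 for Lamb1 (adjusted p 2.30e-06 and 7.12e-05). Per length, Lama1 made up 52.2% and 54.8% of all laminin alpha chain TPM in WT on day 0 and 1.73% and 1.37% on day 2, when Lama5 made up 94.0% and 94.2%. Lamb1 was 9.51% and 3.57% of the beta chain TPM on day 0 and 60.6% and 70.4% on day 2.

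In TKO too Lama1 and Lamb2 fell by day 2. Lama1 went from 218 and 220 CPM on day 0 to 13.7 and 15.2 on day 2 (-3.92 ± 0.25, adjusted p 4.21e-08) and Lamb2 from 118 and 121 to 15.4 and 17.1 (-2.88 ± 0.10, 5.00e-11). Lama5, at 243 and 252 CPM on day 0 and 364 and 388 on day 2, rose by less (0.60 ± 0.18, 0.0119). That call was lost without TKO day 0 replicate 1 (adjusted p 0.0831), without TKO day 0 replicate 2 (0.0617), without TKO day 2 replicate 2 (0.0602) and with no filter on low counts (0.0885). To day 7 Lama5 was called again in TKO (0.76 ± 0.18, 0.00234). Lamb1 was at 16 and 34.8 CPM in the TKO libraries of day 0, more than 2-fold apart, and its change to day 2 was not called. Its rise to day 7 (2.24 ± 0.34, 0.000148) lost the call when only the libraries compared were fitted (0.0506), and was 2.88 without TKO day 0 replicate 2.

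**Figure D2:**
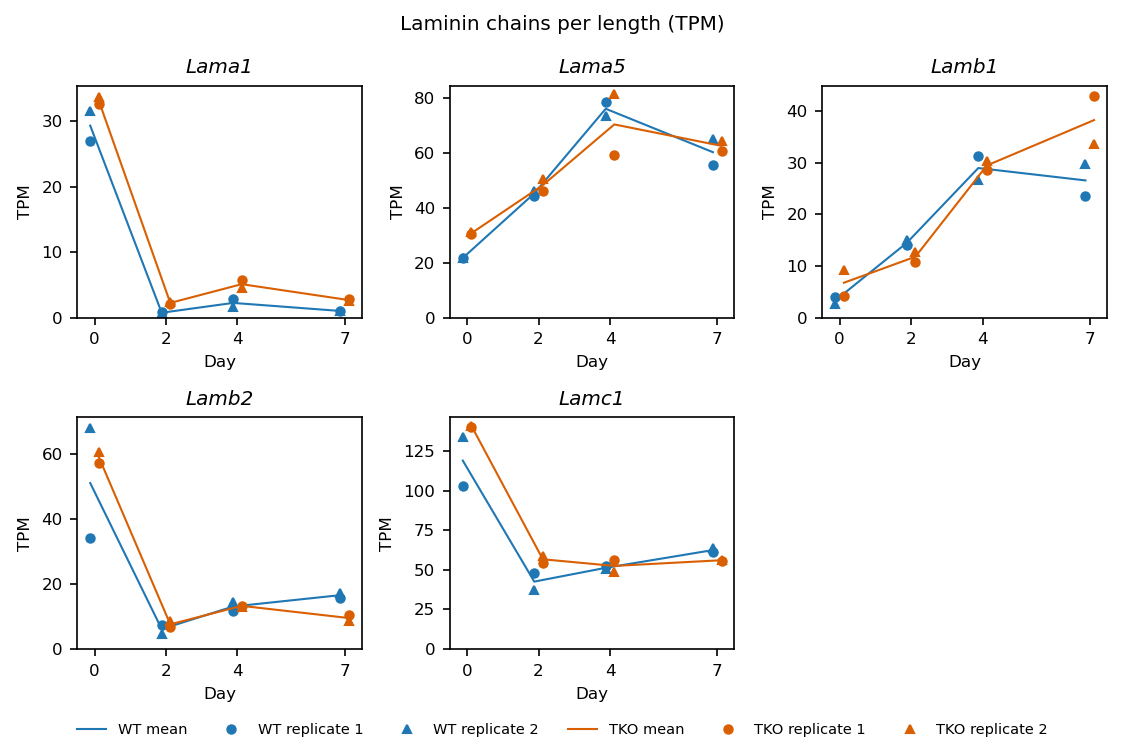
Level per length (TPM, y axis from 0) of 5 laminin chain genes by day (x axis) in WT (blue) and TKO (orange); circles are replicate 1, triangles replicate 2, and lines join the means of 2 libraries. Lama1, Lamb2 and Lamc1 drop from day 0 to day 2 in both genotypes while the means of Lama5 and Lamb1 climb (the change of Lamb1 in TKO was not called), and Lama1 lies higher in TKO than in WT on days 2, 4 and 7.

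Between genotypes, the alpha chains Lama1 and Lama3 were called apart on several days. Lama1 was higher in TKO after day 0: 13.7 and 15.2 CPM against 5.60 and 3.97 on day 2, 36.7 and 28.4 against 18.5 and 11.3 on day 4, and 11.1 and 14.2 against 6.06 and 6.44 on day 7. The log2 difference was 0.22 ± 0.22 on day 0 (adjusted p 0.553), 1.59 ± 0.26 on day 2 (0.00242), 1.12 ± 0.23 on day 4 (0.00331) and 1.02 ± 0.25 on day 7 (0.00603). Without TKO day 4 replicate 1 the value of day 4 was 0.92 (0.0316). The day 7 call was lost without WT day 7 replicate 1 (0.0545) and without TKO day 7 replicate 2 (0.0686). Lama3 was lower in TKO on day 0, at 4.84 and 5.40 CPM against 12.9 and 17 (-1.55 ± 0.20, 0.000362), and on day 2, at 2.19 and 2.86 against 5.67 and 5.19 (-1.10 ± 0.21, 0.00495), a call lost without TKO day 2 replicate 1 (0.0614). It was at 1.69 and 2.41 against 3.69 and 4.35 CPM on day 4 (-0.97 ± 0.21, 0.00406), a call lost when only the libraries compared were fitted (0.0674). Its value without TKO day 4 replicate 1 was -0.74 (0.0453). It was at 3.28 and 3.58 against 3.69 and 4.39 on day 7, where it was not called.

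Of the chains Lama5, Lamb1 and Lamc1, Lama5 alone was called between genotypes in the main edgeR fit, and on day 0 alone. Lama5 was higher in TKO on day 0, at 243 and 252 CPM against 108 and 160 (0.89 ± 0.18, adjusted p 0.00788). The call was lost with the length offset (0.176), when only the libraries compared were fitted (0.0959), and without WT day 0 replicate 1 (0.0649), TKO day 0 replicate 1 (0.0506) or TKO day 0 replicate 2 (0.0626). Later, Lama5 gave log2 differences of 0.31 ± 0.18, -0.21 ± 0.18 and -0.10 ± 0.18 on days 2, 4 and 7 (0.278, 0.42 and 0.68), with -0.02 on day 4 without TKO day 4 replicate 1. The change of its difference from day 0 was called for days 4 and 7 (-1.10 and -0.99), calls lost with the length offset (0.12 and 0.121). Lamb1 gave 0.79 ± 0.35, -0.53 ± 0.33, -0.04 ± 0.32 and 0.50 ± 0.33 on days 0, 2, 4 and 7 (0.171, 0.319, 0.949 and 0.244); without TKO day 0 replicate 1 the day 0 value was 1.26 and was called (0.0406), as was the day 2 value when only the libraries compared were fitted (0.0108). Lamc1 gave 0.28 ± 0.14, 0.25 ± 0.14, -0.02 ± 0.14 and -0.31 ± 0.14 (0.199, 0.253, 0.931 and 0.0817). Lamc1 was called on day 0 without WT day 0 replicate 2 (0.00121), and on day 7 with the length offset (0.00788) or when only the libraries compared were fitted (9.02e-05). A p that misses the threshold does not show that the genotypes were alike.

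The beta chains Lamb2 and Lamb3 were lower in TKO on day 7. Lamb2 was at 14.3 and 14.4 CPM against 29.7 and 34.1 in WT (-1.15 ± 0.10, adjusted p 9.45e-07). Both TKO libraries lay below both WT libraries, while on day 0 (118 and 121 against 129 and 146 CPM; -0.20 ± 0.09, 0.178) and day 4 (27.0 and 25.9 against 25.3 and 22.8; 0.14 ± 0.10, 0.302) it was not called. On day 2 Lamb2 was higher in TKO by 0.33 ± 0.10 (0.0439), and that call was lost with the length offset (0.693) and without WT day 2 replicate 1 (0.0617), WT day 2 replicate 2 (0.279), TKO day 2 replicate 1 (0.0751) or TKO day 2 replicate 2 (0.314). Lamb3 was at 1.93 and 2.07 CPM in TKO against 8.79 and 10.2 in WT on day 7 (-2.25 ± 0.19, 8.69e-07). This rests on how length is treated: with the length offset the difference was -0.78 (0.0805), and per length the libraries overlapped, at 2.09 and 4.75 TPM against 4.20 and 5.84 TPM. Its rise in WT from day 0 to day 7, 3.86 in counts, was 0.12 with that offset (0.791). Lama4, an alpha chain of vessel walls, was higher in TKO on day 4, at 4.04 and 4.39 against 1.5 and 1.59 CPM (1.45 ± 0.23, 0.000491), and on day 7, at 2.76 and 3.86 against 0.990 and 1.09 CPM (1.67 ± 0.25, 0.000121). Both calls of Lama4 were lost with the length offset (0.103 on day 4 and, at a log2 difference of 0.52, 0.496 on day 7), and the day 4 call was kept without TKO day 4 replicate 1 (0.00152).

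Type IV collagen was the network collagen of these cells, through Col4a1 and Col4a2, whose products form the general basement membrane trimer. Col4a1 in WT was at 1.41 and 1.66 CPM on day 0, 35.8 and 28.8 on day 2, 80.0 and 70.3 on day 4 and 253 and 218 on day 7. Col4a2 in WT was at 1.81 and 2.51, 9.22 and 8.82, 26.4 and 25.7, and 74.7 and 66.7 CPM on the same days. Each day's WT libraries lay above those of the day before for both genes. To day 7 the rise was 7.26 ± 0.42 for Col4a1 and 5.03 ± 0.38 for Col4a2 (adjusted p 3.00e-08 and 2.48e-07), and 6.43 for Col4a1 with the length offset. From day 2 on, the TPM of Col4a1 was between 2.74 and 5.0 times that of Col4a2 in all 12 libraries.

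In TKO the pair had another course. Col4a1 was at 3.81 and 4.27 CPM on day 0, 61.1 and 67.1 on day 2, 319 and 133 on day 4 and 65.7 and 66.1 on day 7. Col4a2 was at 3.24 and 3.95, 19.4 and 21.0, 129 and 53.0, and 28.0 and 26.4 CPM. Both TKO libraries thus lay above both WT libraries on days 0, 2 and 4 and below both on day 7, for both genes. On day 4 the log2 difference was 1.59 ± 0.30 for Col4a1 and 1.80 ± 0.30 for Col4a2 (adjusted p 0.00238 and 0.00105). The TKO libraries of that day were more than 2-fold apart, and without TKO day 4 replicate 1, the library with more endoderm markers, the values were 0.82 and 1.02 (0.000905 and 0.000138). The part of those markers in the size of the difference was not tested. On day 7 it was -1.84 ± 0.30 for Col4a1 and -1.38 ± 0.30 for Col4a2 (0.000515 and 0.00301). On day 0 neither was called (1.40 ± 0.45, 0.0695, and 0.73 ± 0.42, 0.288), although Col4a1 was called by DESeq2 (0.00208), with a stricter filter (0.0499) and when only the libraries compared were fitted (0.0396).

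On day 2 Col4a1 just missed the threshold (0.99 ± 0.30, adjusted p 0.0525). It was called with the stricter filter (0.0355), the length offset (0.0361), DESeq2 (0.0254) and when only the libraries compared were fitted (0.000761). Col4a2 was called on day 2 (1.16 ± 0.32, 0.0334), but not with no filter on low counts (0.0971) nor without WT day 2 replicate 1 (0.111), WT day 2 replicate 2 (0.204), TKO day 2 replicate 1 (0.102) or TKO day 2 replicate 2 (0.169). The turn from higher to lower was itself tested: the TKO against WT difference moved from day 0 to day 7 by -3.23 ± 0.54 for Col4a1 (0.0011) and by -2.11 ± 0.51 for Col4a2 (0.00997); the latter was lost without WT day 0 replicate 1 (0.0772).

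The other type IV chains stayed low. Col4a5, a chain of the kidney and skin basement membranes, reached 6.13 and 5.64 CPM in WT and 9.46 and 11.3 CPM in TKO on day 7 (0.82 ± 0.28, adjusted p 0.0301). The call was lost with the length offset (0.109) and without WT day 7 replicate 1 (0.108), WT day 7 replicate 2 (0.159), TKO day 7 replicate 1 (0.0671) or TKO day 7 replicate 2 (0.192). Its log2 difference on day 4 was 0.54 ± 0.30 (0.195) and was called without TKO day 4 replicate 1 (0.88, 0.0462). Its neighbour Col4a6 was at 0.772 and 0.868 CPM in WT and 1.47 and 1.52 in TKO on day 7 (0.86 ± 0.40, 0.0959), and was called when only the libraries compared were fitted (0.0131). Col4a3 and Col4a4 were below 1 CPM in every library.

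**Figure D3:**
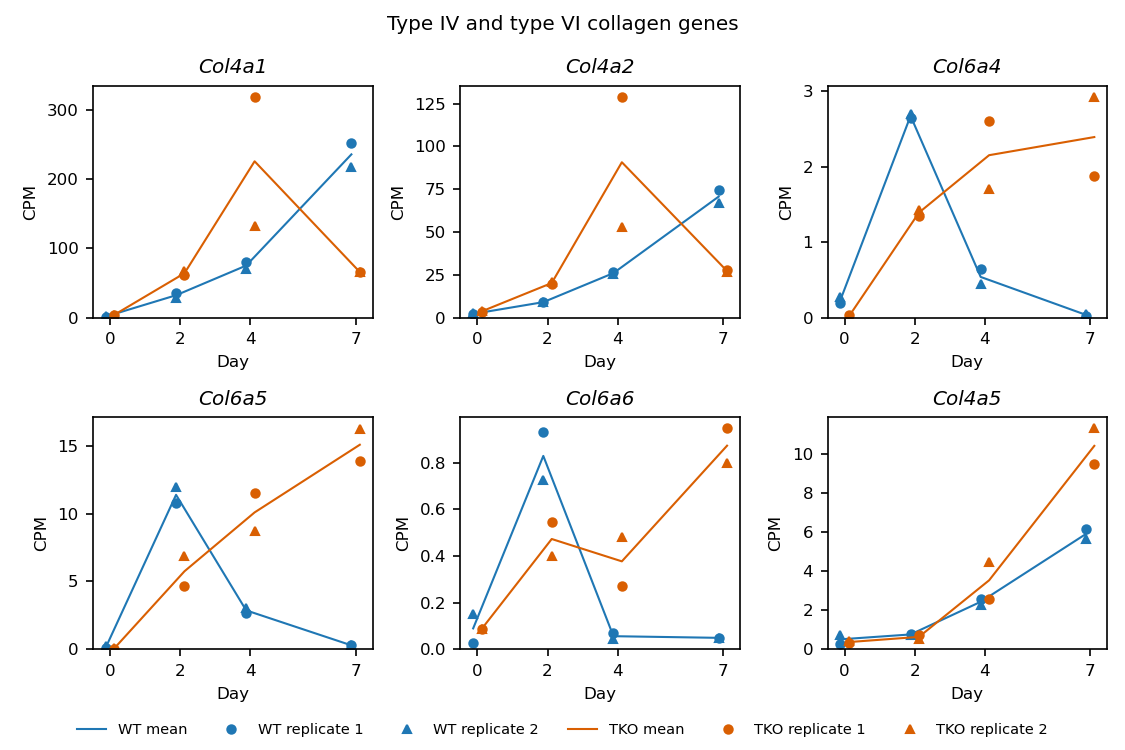
Level (CPM, y axis from 0, scaled per panel) of Col4a1, Col4a2, Col6a4, Col6a5, Col6a6 and Col4a5 by day in WT (blue) and TKO (orange); circles are replicate 1, triangles replicate 2, and lines join the means of 2 libraries. Col4a1 and Col4a2 peak on day 4 in TKO, where the circle lies far above the triangle, and on day 7 in WT, and the 3 Col6 genes peak on day 2 in WT and stay up in TKO on day 7.

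Among the type VI genes, the neighbours Col6a4, Col6a5 and Col6a6 gave the largest differences between genotypes on day 7. These chains are homologous to Col6a3 and can take its place in the type VI trimer. In WT they came on and went off again: Col6a5 was at 0.0811 and 0.201 CPM on day 0, 10.8 and 12.0 on day 2, 2.66 and 3.07 on day 4 and 0.290 and 0.265 on day 7. Col6a4 was at 0.189 and 0.276, 2.64 and 2.70, 0.638 and 0.439, and 0.0241 and 0.0482 CPM. Col6a6 was at 0.0270 and 0.151, 0.934 and 0.726, 0.0690 and 0.0418, and 0.0483 and 0.0482 CPM. In all 3 genes the WT libraries of day 2 stood above every other WT library.

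In TKO the 3 genes also came on by day 2 and were not lower on day 7 than on day 2 in their means. Col6a5 was at 0.0285 and 0.0866 CPM on day 0, 4.65 and 6.85 on day 2, 11.5 and 8.71 on day 4 and 13.9 and 16.3 on day 7. Col6a4 was at 0.0285 and 0.00, 1.34 and 1.43, 2.60 and 1.70, and 1.87 and 2.92 CPM, and Col6a6 at 0.0854 and 0.0866, 0.547 and 0.399, 0.271 and 0.483, and 0.949 and 0.799 CPM. On day 7 the log2 difference for Col6a5 was 5.75 ± 0.30 (adjusted p 1.03e-08), or 5.13 with the length offset. On day 7 Col6a4 was counted 171 times in TKO and 3 times in WT, 66.5-fold after scaling, with a 95% interval from 22.4 to 326 that covers counting error only (adjusted p 9.33e-07). Col6a6 differed by 4.10 ± 0.59 (9.15e-05).

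On day 4 all 3 were already higher in TKO: Col6a5 by 1.82 ± 0.22 (adjusted p 5.73e-05), Col6a4 by 1.99 ± 0.33 (0.000596) and Col6a6 by 2.67 ± 0.58 (0.00404). Without TKO day 4 replicate 1 Col6a5 was at 1.60 (0.000428), Col6a4 at 1.64 (0.00585) and Col6a6 at 3.02 (0.0041). On day 2 the order was the other way for Col6a5, which was lower in TKO by a log2 difference of -0.98 ± 0.22 (0.0103), a call lost with the length offset (0.125) and without WT day 2 replicate 2 (0.088) or TKO day 2 replicate 1 (0.117). On day 0 Col6a4 was counted 18 times in WT and 1 time in TKO (adjusted p 0.013), 16.4-fold with a counting interval from 2.58 to 681. This call was lost without TKO day 0 replicate 2, where the log2 difference was -2.90 against -3.77 with all libraries. From day 0 to day 7 the genotype difference moved by 7.03 ± 0.85 for Col6a5 and 4.17 ± 1.01 for Col6a6 (4.25e-05 and 0.00767). The call of Col6a6 was lost without WT day 0 replicate 2, and its mean was at most 0.874 CPM in any group.

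On day 7 none of the classic type VI chains was called higher in TKO. From day 0 to day 4 the genotype difference of Col6a2 did move up, as for Col6a4 and Col6a5 (5.06 ± 1.38, adjusted p 0.0295). Col6a2 had 0 counts in TKO on day 0, and the call was lost when only the libraries compared were fitted. Col6a1 was at 4.66 and 5.04 CPM in WT and 1.29 and 1.27 in TKO on day 7, a log2 difference of -1.92 ± 0.34 (adjusted p 0.000516), and was at 0.5 CPM or less in every library before. Col6a2, which lies 85161 bases from it on chromosome 10, was at 1.64 and 1.91 against 1.18 and 1.13 CPM and was not called. Col6a3 was at 0.386 and 0.386 against 0.920 and 0.689 CPM, and was not called either.

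Most of the 11 fibrillar collagens rose. By day 2, 5 rose and 1 fell in WT (32.9% of all genes rose and 28.6% fell), and 7 rose and 1 fell in TKO (31.5% and 25.5%). By day 7, 10 rose and 0 fell in WT (32.9% and 33.2%), with a median log2 change of 2.61, and 10 rose and 1 fell in TKO (36.1% and 31.7%), with a median of 3.08. Col2a1, the cartilage and notochord collagen, was at 1.70 and 1.71 CPM in WT on day 0, 11.5 and 10.7 on day 2, 7.59 and 5.37 on day 4 and 130 and 108 on day 7. In TKO Col2a1 was at 0.569 and 0.404, 5.06 and 6.83, 8.15 and 6.16, and 114 and 137 CPM. The genotypes thus did not overlap on days 0 and 2 and did on days 4 and 7; TKO was lower on day 0 by a log2 difference of -1.80 ± 0.35 (adjusted p 0.00575) and on day 2 by -0.90 ± 0.19 (0.00912). The day 0 call was lost without TKO day 0 replicate 2 (0.0748), and the day 2 call with the length offset (0.0981) and without TKO day 2 replicate 1 (0.0922). The rise to day 7 was 6.12 ± 0.23 in WT (5.23e-11; 4.90 with the length offset) and 8.0 ± 0.27 in TKO (2.19e-11).

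Col5a1 and Col5a2, chains that seed fibrils of type I collagen, parted on day 7. Col5a1 was at 5.87 and 8.31 CPM in WT on day 0, 15.8 and 14.6 on day 2, 10.7 and 7.94 on day 4 and 105 and 127 on day 7, and in TKO at 7.49 and 7.74, 22.4 and 24.3, 20.8 and 14, and 77.7 and 79.8 CPM. It was higher in TKO on day 4 (0.90 ± 0.19, adjusted p 0.00389) and lower on day 7 (-0.56 ± 0.18, 0.0221). For day 4, neither the fit without TKO day 4 replicate 1 (0.58, 0.0513) nor that of the compared libraries alone (0.0566) gave a call. The day 7 call was lost with no filter on low counts (0.0657) and without WT day 7 replicate 2 (0.14), TKO day 7 replicate 1 (0.0829) or TKO day 7 replicate 2 (0.0748). The day 2 difference (0.62 ± 0.19, 0.0466) was lost with no filter (0.13), the length offset (0.111), and without WT day 2 replicate 1 (0.101), WT day 2 replicate 2 (0.254), TKO day 2 replicate 1 (0.123) or TKO day 2 replicate 2 (0.238). Col5a2 was at 7.99 and 11.1 CPM in WT and 48.1 and 38.8 in TKO on day 7 (2.18 ± 0.30, 8.12e-05), while on day 4 its groups overlapped, at 12.1 and 6.90 against 7.52 and 14.4 CPM. Col3a1, the next gene on chromosome 1, 24614 bases away on the other strand, was at 10.2 and 2.56 CPM in WT and 3.54 and 2.40 in TKO on day 7, with the WT libraries more than 2-fold apart.

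Other fibrillar chains were higher in TKO on day 4. Col1a2, a chain of type I collagen, was at 8.75 and 4.83 CPM against 2.03 and 1.97 (1.76 ± 0.23, adjusted p 9.28e-05), and on day 7 the groups met, at 11.8 and 10.6 against 9.53 and 10.6 CPM. Col27a1 was higher in TKO on days 2, 4 and 7: 5.55 and 6.54 against 3.11 and 2.49 CPM (1.11 ± 0.18, 0.002), 6.86 and 7.84 against 3.71 and 2.93 (1.14 ± 0.18, 0.000348), and 10.2 and 10.1 against 5.96 and 6.56 (0.69 ± 0.17, 0.0051; lost without WT day 7 replicate 1, 0.0656). Col5a3 was at 3.85 and 3.38 against 1.09 and 1.32 CPM on day 4 (1.59 ± 0.26, 0.000547). Without TKO day 4 replicate 1 the day 4 values were 1.26 for Col1a2, 1.23 for Col27a1 and 1.49 for Col5a3, all called. Col5a3 was higher on day 2 too (1.37 ± 0.27, 0.00525; lost without TKO day 2 replicate 2, 0.0707) and on day 0 (1.19 ± 0.30, 0.0214). The day 0 call was lost when only the libraries compared were fitted (0.149) and without WT day 0 replicate 2 (0.0687) or TKO day 0 replicate 1 (0.245). Col11a1 was lower in TKO on day 0, at 1.22 and 1.73 against 3.05 and 3.57 CPM (-1.16 ± 0.26, 0.0113), a call lost with the length offset (0.152), when only the libraries compared were fitted (0.0803) and without TKO day 0 replicate 1 (0.142).

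Fibril-associated collagens gave 4 higher and 2 lower of 9 on day 7, where 23.4% of all genes were higher and 21.1% lower. Col14a1, which sits on type I fibrils, was at 0.778 CPM or less in every other library and at 6.41 and 6.25 CPM in TKO on day 7, against 0.241 and 0.145 in WT (5.01 ± 0.36, adjusted p 1.65e-07). Col22a1, known from tissue junctions, was at 8.76 and 10.3 CPM in WT and 33.7 and 39.7 in TKO on day 7 (1.94 ± 0.14, 2.08e-07), and at 4.57 and 4.91 against 10.5 and 12.1 CPM on day 4 (1.25 ± 0.14, 3.52e-05; 1.34 without TKO day 4 replicate 1). It rose in both genotypes, so that in TKO it was higher on day 7 than in any WT library. Col16a1 was at 2.94 and 3.01 CPM in WT and 8.60 and 8.68 in TKO on day 7 (1.53 ± 0.27, 0.000398). Col19a1 was counted 91 times in TKO and 3 times in WT on day 7 (adjusted p 0.000226), 35.4-fold with a counting interval from 11.7 to 175.

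Of the chains of type IX collagen, which coats cartilage fibrils, Col9a2 and Col9a3 were lower in TKO on day 7. The other chain, Col9a1, averaged at most 0.674 CPM in any group. It was counted 42 times in TKO and 24 times in WT on day 7, without a call. On day 4 Col9a1 was called higher in TKO (2.22, or 2.51 without TKO day 4 replicate 1), a call lost under at least 1 alternative. Col9a3 was at 15.6 and 15.1 CPM in WT and 4.89 and 5.07 in TKO on day 7 (-1.63 ± 0.21, adjusted p 3.17e-05), although on day 4 its groups overlapped, at 7.10 and 6.92 against 5.19 and 9.20 CPM. Col9a2 was at 3.69 and 3.64 against 2.04 and 2.20 CPM on day 7 (-0.79 ± 0.17, 0.00192), a call lost with the length offset (0.0776). Col12a1, a fibril-associated chain of tendon and fascia, was lower in TKO on day 2, at 0.164 and 0.141 against 0.569 and 0.467 CPM (-1.76 ± 0.43, 0.0171), a call lost without WT day 2 replicate 1 (0.0716), WT day 2 replicate 2 (0.0582), TKO day 2 replicate 1 (0.0803) or TKO day 2 replicate 2 (0.145). By day 7 Col12a1 was at 7.89 and 4.65 CPM in WT and 5.95 and 4.93 in TKO and its groups overlapped.

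Col18a1, a basement membrane collagen that carries heparan sulfate and is the source of endostatin, peaked on day 2. It was at 55.8 and 61.7 CPM in WT on day 0, 710 and 680 on day 2, 380 and 344 on day 4 and 207 and 220 on day 7. In TKO it was at 36.2 and 39.3, 614 and 650, 462 and 404, and 215 and 189 CPM. The rise to day 2 was 3.56 ± 0.10 in WT and 4.06 ± 0.11 in TKO (adjusted p 9.62e-12 and 5.30e-12). TKO was lower on day 0 (-0.64 ± 0.10, 0.00111), a call lost when only the libraries compared were fitted (0.0682), and Col18a1 was not called between genotypes on the other days.

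Of the transmembrane and other collagens, Col13a1, a cell surface collagen, was at 3.54 and 3.24 CPM in WT and 6.43 and 6.00 in TKO on day 0, without a call. On day 4 it was at 0.759 and 0.941 against 6.67 and 2.76 CPM (2.48 ± 0.38, adjusted p 0.000366), or 1.70 (0.0021) without TKO day 4 replicate 1. On day 7 it was at 1.35 and 0.675 against 7.36 and 8.49 CPM (2.96 ± 0.39, 4.03e-05). Col28a1, whose promoter window holds no CG, was at 0.0862 and 0.125 CPM in WT and 0.875 and 1.17 in TKO on day 4 (3.25 ± 0.42, 9.24e-05; 3.45 without TKO day 4 replicate 1). On day 7 it was counted 79 times in TKO and 3 times in WT (8.51e-06), 30.7-fold with a counting interval from 10.1 to 152. On day 2, when its level was highest in WT, the genotypes were at 0.508 and 0.519 against 0.656 and 0.680 CPM, without a call.

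Col7a1, the anchoring fibril of skin, was at 26.9 and 30.9 CPM in WT and 16.1 and 19.1 in TKO on day 7 (-0.71 ± 0.20, adjusted p 0.00895). The call was lost with the length offset (0.0708) and without WT day 7 replicate 2 (0.0648) or TKO day 7 replicate 1 (0.0705). On day 2 it was higher in TKO (1.10 ± 0.23, 0.00877), which the length offset removed altogether (-0.01, 0.99) and which was lost without WT day 2 replicate 2 (0.0606) or TKO day 2 replicate 2 (0.0808). Col8a2, a collagen of the corneal endothelium, came on in both genotypes: it was at 0.0811 and 0.126 CPM on day 0 and 25.9 and 25.4 on day 7 in WT, and at 0.0569 and 0.0289 CPM and 19.6 and 20.3 CPM in TKO. Its WT rise was 7.90 ± 0.24 (7.12e-12), and the genotypes were not called apart.

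**Figure D4:**
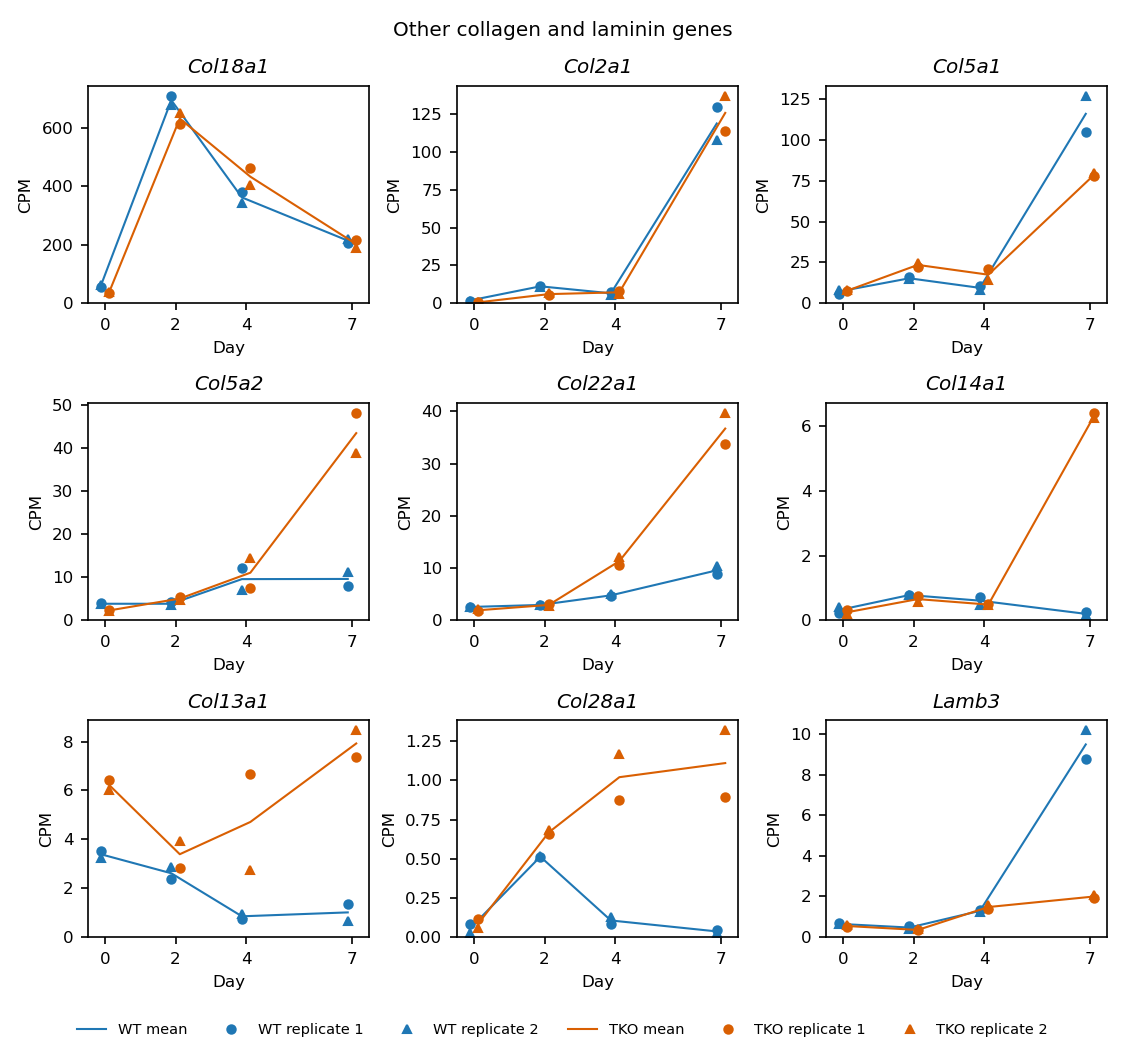
Level (CPM, y axis from 0, scaled per panel) of Col18a1, Col2a1, Col5a1, Col5a2, Col22a1, Col14a1, Col13a1, Col28a1 and Lamb3 by day in WT (blue) and TKO (orange); circles are replicate 1, triangles replicate 2, and lines join the means of 2 libraries. Col18a1 peaks on day 2 in both genotypes, Col14a1 is up in TKO on day 7 alone, and Lamb3 is up in WT on day 7 in counts, a rise that was 0.12 on the log2 scale with the length offset.

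The plot of log2 differences on days 4 and 7 sets the 30 genes called on either day, with a mean of at least 1 CPM in some group, side by side. These comparisons use different libraries on each day, so each day has its own WT. Col4a1, Col4a2 and Col5a1 were called higher on day 4 and lower on day 7; both calls of Col5a1 were lost under some alternatives, that of day 4 without TKO day 4 replicate 1 (0.0513). Lamb2, Lamb3, Col9a2, Col9a3, Col6a1 and Col7a1 were called lower on day 7 and not called on day 4. Col6a4, Col6a5, Col28a1, Col13a1, Col22a1, Lama4, Col5a3, Lama1, Col27a1 and Col26a1 were called higher on both days. The calls of Col5a3 on day 7 and of Col26a1 on both days were each lost without at least 1 library. Those of Col26a1 were also lost with the length offset (0.488 and 0.882). Lost under at least 1 alternative as well were the calls of Lama4 on both days. The same held for Lamb3, Col9a2, Col7a1, Lama1 and Col27a1 on day 7.

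**Figure D5:**
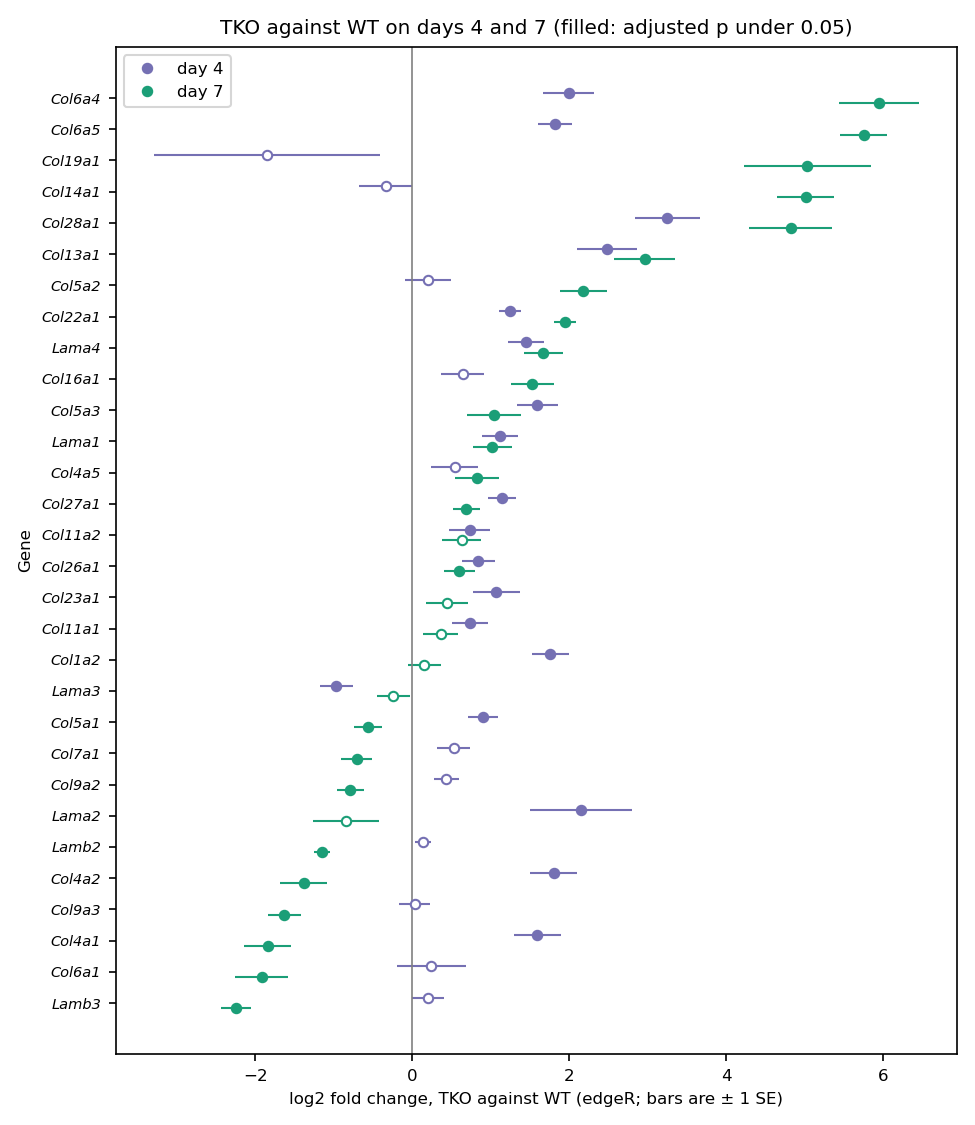
Log2 fold change of TKO against WT (x axis; edgeR) on day 4 (purple) and day 7 (green) for the 30 collagen and laminin genes called on either day with a mean of at least 1 CPM in some group (y axis, ordered by the day 7 value); bars are 1 SE to each side and filled points are called at adjusted p under 0.05. Col4a1 and Col4a2 lie at 1.59 and 1.80 on day 4 and at -1.84 and -1.38 on day 7, while Col6a4 and Col6a5 lie at 1.99 and 1.82 on day 4 and above 5 on day 7. Some filled points, such as Lama4 on both days and Lamb3 on day 7, were not called with the length offset.

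The enzymes and chaperones that build collagen were followed as a list of 20 genes, all of which were tested. TKO was higher in 1 and lower in 4 on day 0 (5 of 20 called, against 12.7% of all genes), 6 and 1 on day 2 (35.0% against 13.4%), 11 and 0 on day 4 (55.0% against 28.9%), and 6 and 5 on day 7 (55.0% against 44.5%). The day 4 count without TKO day 4 replicate 1 was 6 higher and 1 lower. Serpinh1, the chaperone that binds the collagen helix, was at 23.0 and 21.3 CPM in TKO against 51.1 and 48.5 in WT on day 0 (-1.17 ± 0.14, adjusted p 0.000247). Crtap, part of a prolyl hydroxylase complex of the endoplasmic reticulum, was at 28.7 and 30.1 against 13.7 and 12.5 CPM on day 4 (1.16 ± 0.12, 1.60e-05; 1.19 without TKO day 4 replicate 1). P3h3, a related prolyl hydroxylase, was at 14.9 and 13.7 against 7.21 and 7.39 CPM on day 2 (0.97 ± 0.11, 0.000272). On day 7 P4ha2, a prolyl 4-hydroxylase subunit, was lower (-0.99 ± 0.19, 0.000705), and P3h1 and Plod1, which modify proline and lysine, were higher (0.53 ± 0.11, 0.00122, and 0.48 ± 0.10, 0.0014).

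Processing and cross-linking genes, 14 in all, gave 0 calls by edgeR on day 0 (3 at an unadjusted p under 0.05, and 1 call by DESeq2), 3 higher and 0 lower on day 2 (21.4% called, against 13.4% of all genes), 6 and 2 on day 4 (57.1% against 28.9%), and 5 and 5 on day 7 (71.4% against 44.5%). The day 4 count without TKO day 4 replicate 1 was 3 higher and 1 lower. Loxl2, which cross-links type IV collagen, was at 23.2 and 22.5 CPM in TKO against 82.1 and 81.7 in WT on day 7 (-1.84 ± 0.24, adjusted p 5.61e-05). Loxl1, an enzyme of elastic fibres, was lower too (-1.90 ± 0.22, 1.57e-05). Tll1, a protease that trims procollagen, was higher on day 4 (1.30 ± 0.14, 1.83e-05; 1.36 without TKO day 4 replicate 1) and on day 7 (1.12 ± 0.13, 1.55e-05), and Adamts2, which removes the amino-terminal propeptide, on day 7 (1.42 ± 0.21, 0.00012).

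Partners of laminin and type IV collagen in the basement membrane, 14 genes, gave 0 higher and 2 lower on day 0 (14.3% called, near the 12.7% of all genes), 4 and 0 on day 2 (28.6% against 13.4%), 3 and 2 on day 4 with or without TKO day 4 replicate 1 (35.7% against 28.9%), and 4 and 4 on day 7 (57.1% against 44.5%). Nid1, which links laminin to type IV collagen, was higher in TKO on day 2, at 34.0 and 35.0 against 16.2 and 16.8 CPM (1.06 ± 0.16, adjusted p 0.00144), and on day 4, at 32.0 and 31.9 against 15.9 and 11.1 (1.24 ± 0.16, 0.000111; 1.23 without TKO day 4 replicate 1). Agrn, a heparan sulfate proteoglycan, was at 219 and 212 against 345 and 386 CPM on day 7 (-0.76 ± 0.15, 0.00114), and Tinagl1 was lower as well (-1.97 ± 0.28, 8.69e-05). Frem2, of the complex that anchors epithelia, was lower on day 4, at 11.4 and 7.63 against 23.3 and 16.7 CPM (-1.07 ± 0.21, 0.00195; -1.40 without TKO day 4 replicate 1), and higher on day 7, at 69.5 and 74.0 against 13.1 and 13.6 CPM (2.43 ± 0.21, 1.18e-06). Smoc1, a calcium-binding matrix protein, was higher on day 7, at 44.8 and 47.8 against 13.7 and 12.3 CPM (1.83 ± 0.09, 5.61e-09).

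The receptors, 13 genes, gave 3 higher and 1 lower on day 0 (30.8% called, against 12.7% of all genes), 2 and 0 on day 2 (15.4%, near the 13.4% of all genes), 4 and 1 on day 4 (38.5% against 28.9%), and 4 and 4 on day 7 (61.5% against 44.5%). On day 4, leaving out TKO day 4 replicate 1 gave 2 higher and 0 lower. Ddr2, a receptor tyrosine kinase for fibrillar collagen, was at 2.92 and 2.16 CPM in TKO against 0.224 and 0.105 in WT on day 4 (3.89 ± 0.34, adjusted p 3.22e-06; 4.56 without WT day 4 replicate 1 and 3.64 without TKO day 4 replicate 1) and at 8.51 and 7.27 against 0.555 and 0.386 CPM on day 7 (4.06 ± 0.28, 1.09e-07; 2.98 with the length offset). Itga1, the alpha chain of a collagen-binding integrin, was at 18.1 and 18.3 against 3.69 and 4.15 CPM on day 7 (2.21 ± 0.14, 5.39e-08) and was higher on day 4 as well (1.62 ± 0.13, 2.08e-06; 1.65 without TKO day 4 replicate 1). Itgb1, the beta chain shared by the collagen and laminin integrins, was lower by a smaller step on day 7 (-0.45 ± 0.09, 0.00126).

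Matrix proteases and their inhibitors, 18 genes, gave 2 higher and 1 lower on day 0 (16.7% called, against 12.7% of all genes), 4 and 0 on day 2 (22.2% against 13.4%), 6 and 0 on day 4 (33.3%, near the 28.9% of all genes), and 5 and 4 on day 7 (50.0%, near 44.5%). On day 4, leaving out TKO day 4 replicate 1 gave 5 higher and 0 lower. Mmp2, a gelatinase that cleaves type IV collagen, was at 144 and 144 CPM in TKO against 70.1 and 78.1 in WT on day 4 (0.96 ± 0.09, adjusted p 5.29e-06; 0.95 without TKO day 4 replicate 1) and at 158 and 149 against 59.5 and 50.3 CPM on day 7 (1.48 ± 0.09, 3.54e-08). Mmp14 and Mmp15, membrane-bound proteases, were higher on day 2 (1.04 ± 0.10 and 1.05 ± 0.10, both at 5.02e-05). Timp2, an inhibitor of these proteases, was lower on day 7, at 8.71 and 8.35 against 22.5 and 20.6 CPM (-1.34 ± 0.23, 0.000442), and the other gelatinase, Mmp9, was at 3.22 and 2.15 against 9.82 and 10.9 CPM (-1.95 ± 0.43, 0.00272).

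Markers of cell types were followed as lists too. On day 7, 44.5% of all genes tested were called, 23.4% higher and 21.1% lower. The share called was 71.4% for primitive streak and mesoderm, 70.0% for stem cells and epiblast, and 57.1% for trophoblast. It was 53.8% for endoderm, 50.0% for stromal fibroblasts and 50.0% for neural markers, nearer to the share of all genes. The 8 markers of primitive streak and mesoderm summed to 757 and 781 CPM in TKO against 145 and 117 in WT, and 5 of the 7 tested were higher and 0 lower. The 10 markers of stromal fibroblasts summed to 134 and 135 CPM in TKO against 361 and 379 in WT, with 2 of the 8 tested higher and 2 lower. That sum is mostly Acta2 (38.4 and 37.5 against 191 and 186 CPM) and Tagln (58.8 and 61.3 against 151 and 174), both lower in TKO, while Pdgfrb (22.2 and 19.8 against 4.22 and 3.30 CPM) and Dcn (2.67 and 3.17 against 0.459 and 0.386) were higher; Lum stayed at 0.172 CPM or less on day 7. The 13 endoderm markers summed to 152 and 174 CPM in TKO and 149 and 113 in WT, with 4 higher and 3 lower: Sox17 was at 4.40 and 5.04 against 40.8 and 29.2 CPM, and Foxa2 at 89.9 and 106 against 46.1 and 39.2. On day 4 the sums were 71.0 and 18.4 against 17.9 and 25.5 CPM, with 6 higher and 1 lower, or 3 and 1 without TKO day 4 replicate 1. Other lists moved on day 4 too, when 28.9% of all genes were called. Of the neural markers, 4 of 6 tested were higher and 0 lower, and of stem cells and epiblast 5 of 10 and 0. Trophoblast gave 3 higher and 0 lower of 7. Stromal fibroblasts gave 0 and 3 of 8, and primitive streak and mesoderm 1 and 1 of 7. In the endoderm sum of 71.0 CPM, Dab2 held 26.9 and Cubn 25.3. Foxa2 was at 1.5 and 1.22 CPM in TKO against 2.71 and 10.7 in WT. These are bulk libraries, in which more cells of a type and more RNA per cell cannot be told apart. The part of these markers in the collagen and laminin differences was not tested.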

How the data were processed

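The libraries were TruSeq stranded mRNA from total RNA, per the labels' protocols. The deposited files hold, per transcript, the estimated counts (which need not be whole), an effective length and the TPM of kallisto, which the submitters' processing notes name with GRCm38; versions and settings are not given in the sources used here. Of 119414 transcripts, 97.8% matched the GENCODE vM21 annotation of GRCm38 and gave 35975 genes; the rest held 0.946 to 1.05% of the counts. TPM was summed per gene. Expected counts were summed per gene and rounded, then tested with edgeR 4.0.16 (R 4.3.3): TMM scaling, filterByExpr, robust quasi-likelihood fit of all 8 groups with 8 residual degrees of freedom, and Benjamini-Hochberg adjustment over 18489 genes. The standard error is the log2 fold change over the root of F. CPM used TMM library sizes. Alternatives were DESeq2 1.42.0, RLE scaling, no or a stricter filter, only the libraries compared, an effective-length offset, a replicate block and leaving out each library; where that left 1 library in a group, it was assumed to vary like the others. The fit was tested on simulated data in which all genes had the same dispersion and only well-counted genes changed. That test does not cover genes with few counts or libraries far apart. Ratios of counts of 3 or fewer carry exact 95% intervals for counting error only. Named in every comparison were Col4a1 to Col4a6, Lama1, Lama5, Lamb1, Lamb2 and Lamc1, then up to 10 called genes per direction with the largest changes and at least 1 CPM, and up to 2 per direction of each partner list by adjusted p. Others named (Col2a1, Col3a1, Col6a2, Col6a3, Col6a6, Col8a2, Col9a1, Col12a1 and Col18a1 outside those limits on some days) were chosen after their values were seen. The genes, lists and tests were chosen with earlier results of these data known. The values of 1 laminin gene are not reported here, although it is part of the counts. The labels do not say what TKO stands for.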

Additional observations from a re-analysis of the deposited data

Results flagged for a closer look

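For these genes the TKO against WT difference on a later day was itself tested against that of day 0 with edgeR, and the 2 days differed. The 3 tests share the libraries of day 0. Values are the change in the log2 difference, positive where TKO moved up against WT. Genes with 3 counts or fewer in a group (Col6a2 and Col6a4 in TKO on day 0, Col6a4 and Col28a1 in WT on day 7) have fitted values that depend on the prior count.

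From day 0 to day 2 it changed in 6 of the 54 genes (11.1%, against 7.56% of all genes): Col11a1 by 1.84, Lama1 by 1.36, Col27a1 by 1.01, Lamb2 by 0.53, Col18a1 by 0.50 and Col17a1 by -1.70. Each of the 6 calls was lost under at least 1 alternative, and between 0 and 5 genes were called when 1 library was left out, with 0 by edgeR without TKO day 2 replicate 2, where 11 had an unadjusted p under 0.05; DESeq2 on all libraries called 5.

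From day 0 to day 4 it changed in 13 genes (24.1%, against 16.3% of all genes). It moved up for the type VI genes Col6a4 (5.76), Col6a2 (5.06) and Col6a5 (3.10), for the fibrillar genes Col2a1 (1.94), Col11a1 (1.90), Col1a2 (1.51) and Col27a1 (1.05), and for Col22a1 (1.67), Col13a1 (1.60), Lama4 (1.43), Col26a1 (1.31) and Col18a1 (0.89). It moved down for Lama5 (-1.10). Without TKO day 4 replicate 1 the count was 14. Of the 13 calls, 9 were lost under at least 1 alternative, and those of Col6a4, Col11a1, Col22a1 and Col18a1 were kept under all that were run. Lost with the length offset were Col6a5 (adjusted p 0.19), Col26a1 (0.575), Col2a1 (0.052), Lama4 (0.309) and Lama5 (0.12). Col1a2 (0.0751), Col27a1 (0.0775) and Col6a2 (0.07) were lost when only the libraries compared were fitted, and Col13a1 without TKO day 4 replicate 1 (0.224).

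From day 0 to day 7 it changed in 24 genes (44.4%, against 27.1% of all genes). It moved up for Col6a4 (9.71), Col6a5 (7.03), Col14a1 (5.36), Col6a6 (4.17), Col28a1 (4.14), Col5a2 (2.95), Col22a1 (2.37), Col13a1 (2.09), Col2a1 (1.88), Lama4 (1.65), Col11a1 (1.53), Lama3 (1.31), Col26a1 (1.07) and Col18a1 (0.55). It moved down for Col4a1 (-3.23), Col6a1 (-3.03), Col4a2 (-2.11), Lamb3 (-1.99), Col17a1 (-1.52), Col9a3 (-1.22), Col7a1 (-1.01), Lama5 (-0.99), Lamb2 (-0.95) and Lamc1 (-0.60). Of the 24 calls, 13 were lost under at least 1 alternative. Lost with the length offset were Lama4 (adjusted p 0.651), Lamb3 (0.324), Col7a1 (0.878), Lama5 (0.121), Col26a1 (0.819) and Col17a1 (0.112). Lost with 1 library left out were Col28a1 (0.263) and Col4a2 (0.0772) without WT day 0 replicate 1, Col6a1 without TKO day 0 replicate 1 (0.109), Col6a6 without WT day 0 replicate 2 (0.379), Col13a1 without WT day 7 replicate 2 (0.0514) and Col18a1 without TKO day 7 replicate 1 (0.0748). Lamc1 was lost when only the libraries compared were fitted (0.0717) and with each library of days 0 and 7 left out except WT day 0 replicate 2.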

How the results depend on the processing

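Of the calls between genotypes, 6 of 7 on day 0 and 9 of 11 on day 2 were lost under at least 1 alternative. On day 4 this held for 12 of 24 calls and on day 7 for 11 of 27. The count of called collagen and laminin genes stayed within 1.5 times of 24 on day 4 and 27 on day 7. This held under every alternative run, as it did in the 4 comparisons over time. Leaving out 1 library gave 16 to 20 on day 4, 21 to 24 on day 7, 30 to 32 and 40 to 41 in WT on days 2 and 7 against day 0, and 26 to 33 and 44 to 47 in TKO. On day 0 the count was 4 with only the libraries compared, and 4 to 7 with 1 library left out; on day 2 it was 7 with the effective-length offset, and 4 to 8 with 1 library left out. For the change of the difference to day 2 it was 2 with that offset, 3 with only the libraries compared and 0 to 5 with 1 library left out; to day 4 it was 7 with only the libraries compared and 9 to 16 with 1 left out; to day 7 it was 20 to 25. Signs turned with the length offset for Lamb2 on day 0 (0.08) and day 4 (-0.05), Lama5 on day 2 (-0.07) Col7a1 on day 2 (-0.01), and Col26a1 (-0.66) and Lamb3 (-0.67) in TKO from day 0 to day 7; of these Col7a1, Col26a1 and Lamb3 had been called. They turned with 1 library left out for Lamb1 (-0.11 to 0.04), Lamc1 (-0.14 to 0.08) and Pou5f1 (-0.18 to 0.07) on day 4, and for Dnmt3b (-0.01 to 0.11) and Pou5f1 (-0.31 to 0.12) on day 0, none of them called. The cause was not tested. Libraries with the same replicate number did not deviate together: over 28 pairs of groups the correlation of deviations ran from -0.554 to 0.121, and 1 pair was over 0.1. The value of -0.554 was that of WT day 0 with WT day 2, and the next lowest was -0.136. In that pair, replicate 1 of each day deviated like replicate 2 of the other. A source shared by these libraries was not tested, and the replicate block, which follows the numbers, does not take it up. The numbers are thus not taken as pairs. A replicate block gave 10 for 11 calls on day 2, 35 for 36 in TKO from day 0 to day 2, and 4 for 6 and 12 for 13 in the change of the difference to days 2 and 4, and left the other 7 counts as they were.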
